A study of Homo sapiens with 4 samples.

Results

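The genes of the androgen response and the prostate lineage were examined in CUT&Tag profiles of 22RV1, an established human prostate cancer cell line. They were the lineage factors FOXA1 and HOXB13 and the androgen-induced genes ELL2, PLPP1, FKBP5, TMPRSS2, KLK3 and KLK2. These 8 genes were taken by name from the 20037 protein-coding genes that RefSeq places on chromosomes 1 to 22, X and Y of GRCh38. At each gene the listed summits within 1000 bp of either gene end were read, and otherwise the listed interval over the gene.

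There were 4 libraries, with 1 per group: cells given PD0332991, an inhibitor of the kinases CDK4/6; the control of that treatment; cells given an siRNA that knocks down RB; and the control of that knockdown. The sources used here do not say what the control cells received, nor the dose, the duration, the siRNA sequence or the antibody target. All 4 libraries came from the same cell line, grown in medium with serum, so any feature of 22RV1 is shared by treated and control cells. Per the labels' protocols, fixation was with 1% formaldehyde and took 10 min, chromatin was sonicated, and 10 ng of DNA was amplified over 13 cycles. The lists hold no measure of RB itself, so the knockdown could not be checked. With 1 library per group no difference below has a replicate check, no test between conditions was possible, and intervals cover counting error alone. The depth recovered from the lists was 1909342 treatment fragments with PD0332991, 2458767 in its control, 2423305 after RB siRNA and 3479652 in the siRNA control.

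Androgens activate genes of the prostate through paired half-sites in DNA, the androgen response elements. FOXA1 is a pioneer factor that opens chromatin at such sites, and HOXB13 is a homeobox factor of prostate cells. KLK3, which encodes prostate-specific antigen, and the related protease gene KLK2 are the best known androgen-induced genes. FKBP5 encodes a cochaperone of HSP90, TMPRSS2 a transmembrane serine protease whose promoter is often fused to ETS genes in prostate cancer, ELL2 an elongation factor of RNA polymerase II, and PLPP1 a phospholipid phosphatase. RB, once phosphorylated by CDK4/6, releases E2F factors, and the series asked how RB status alters the activity of the ETS factor ETS1.

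The RefSeq table (GRCh38.p14) held promoters for 4 of the 8 genes, and the 250 bases before the start are printed for 3 of them. FOXA1 is shown because a summit lay inside its window, and KLK3 and KLK2 because they are the classical androgen-induced genes and had no summit there. FOXA1 lies on the minus strand (chr14:37595250-37595499), and KLK3 (chr19:50854665-50854914) and KLK2 (chr19:50873189-50873438) on the plus strand. Capitals mark GGGCGG, the GC box, AGAACA, the androgen half-site, and TTTATA, which is TATAAA read on the other strand.
FOXA1: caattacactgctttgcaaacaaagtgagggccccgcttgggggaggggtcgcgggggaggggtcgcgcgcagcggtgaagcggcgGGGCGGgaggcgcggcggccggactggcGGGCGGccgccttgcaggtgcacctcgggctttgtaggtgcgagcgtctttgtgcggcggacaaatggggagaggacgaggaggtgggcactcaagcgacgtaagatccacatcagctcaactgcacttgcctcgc
KLK3: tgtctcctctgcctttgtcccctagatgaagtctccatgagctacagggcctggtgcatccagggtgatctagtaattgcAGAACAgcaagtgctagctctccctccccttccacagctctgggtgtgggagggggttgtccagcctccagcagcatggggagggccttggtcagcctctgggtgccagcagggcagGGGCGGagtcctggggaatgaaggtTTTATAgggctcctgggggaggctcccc
KLK2: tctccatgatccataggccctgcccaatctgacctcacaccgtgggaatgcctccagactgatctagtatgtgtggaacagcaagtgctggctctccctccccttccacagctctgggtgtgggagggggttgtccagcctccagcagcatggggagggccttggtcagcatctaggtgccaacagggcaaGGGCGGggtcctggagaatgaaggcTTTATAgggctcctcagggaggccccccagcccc

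Both strands of each window were searched for the letters of 10 motifs. The FOXA1 window had 2 GC boxes, beginning at bases -164 and -136 relative to the start, and GGGCGG occurred in 42.6% of 35116 promoter windows of the same length. The KLK3 window had 1 AGAACA, beginning at base -170, a half-site found in 12.4% of windows. The KLK2 window had no AGAACA. Both kallikrein windows had a GC box and a match to TATAAA, which 10.7% of windows held. The full androgen response element was searched as both exact half-sites, an inverted repeat with any 3 bases between. It was in none of the 3 windows and in 1 of all 35116. An element or half-site that departs from these letters in any base was not counted, so its absence is not shown. None of the 3 windows held CCGGAAG (ETS, in 8.52% of windows), TGTTTAC (forkhead, 2.98%), CCAATAAA (HOXB13, 0.863%), TTTCGCGC (E2F, 0.439%) or TTTGGCGC (E2F, 0.55%), and CCAAT (32.0%) occurred in the KLK2 window alone among the 3. The KLK3 and KLK2 windows share an identical run of 80 bases. A read lying wholly within that run could not, taken alone, be placed in 1 gene. Whether this affected the lists was not tested.

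Levels are given in FPM, the fragments over a summit per 1000000 treatment fragments of the library, recovered from the deposited fold and p. A summit at a gene end was listed for PLPP1 in all 4 libraries, for FOXA1 in 3 and for ELL2 in 2. KLK3, KLK2, FKBP5, TMPRSS2 and HOXB13 had none within 1000 bp of an end in any library. Of the 32 combinations of gene and library, 9 thus had a gene-end summit. The deposited fold at these 9 summits ranged from 1.03 to 1.45. That fold has 1 added to treatment and to background, with the treatment scaled down. Each fragment then adds about 0.00502 with PD0332991, 0.0141 in its control, 0.00315 after RB siRNA and 0.0104 in the siRNA control. A fold near 1 therefore does not measure how far a summit stands above background. Their deposited −log10 q was 0 in every case, so none is a binding site called after correction for multiple testing. Each has the p that most summits of its library share, whatever their fragments. That p was held by 3106 of 3304 summits with PD0332991, 8805 of 10061 in its control, 2526 of 2632 after RB siRNA and 9717 of 10759 in the siRNA control. The q of 0 therefore cannot tell a high summit from a low one among them. By library, 3 of the 8 genes had one with PD0332991, where 7.73% of all protein-coding genes did. In the PD0332991 control 2 of 8 did, against 16.8% of all genes, after RB siRNA 2 of 8, against 6.63%, and in the siRNA control 2 of 8, against 17.3%. With so few genes these counts do not set the 8 genes apart from genes in general.

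**Figure D1:**
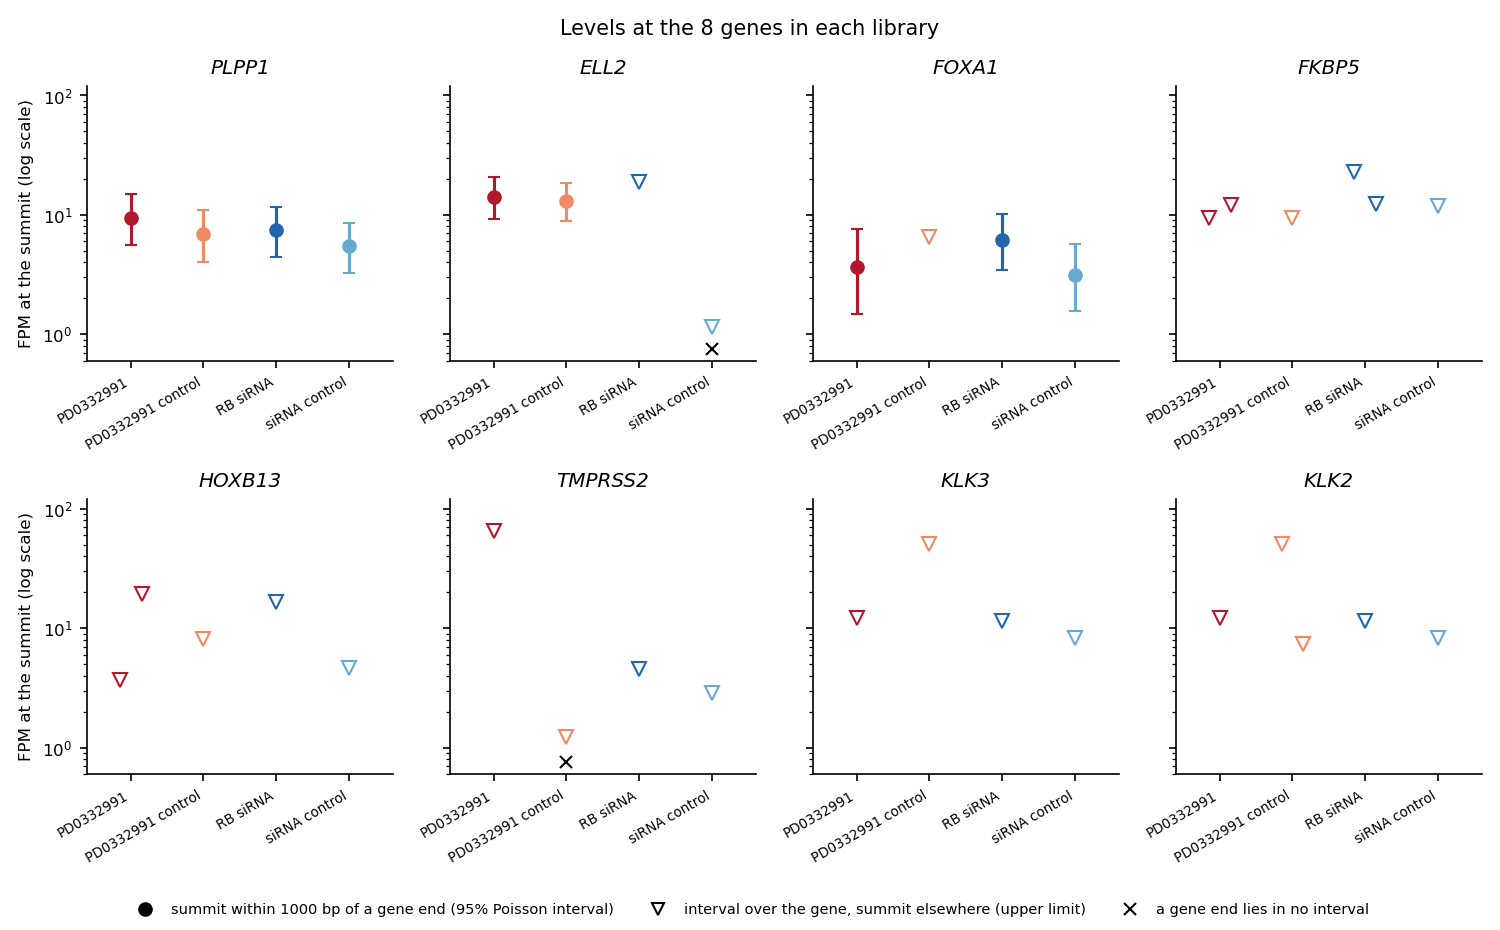
Level at each of the 8 genes (FPM, log axis) in the 4 libraries. Filled circles are summits within 1000 bp of a gene end with their 95% Poisson interval, open triangles are the summits of intervals that lie over the gene but peak elsewhere, which limit the level at the gene from above, and crosses mark a gene end that lies in no interval. PLPP1 has a circle in every library, between 5.46 and 9.43 FPM, and KLK3, KLK2, FKBP5, TMPRSS2 and HOXB13 have no circle in any library.

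The pioneer factor gene FOXA1 (chr14:37589552-37595249) had summits of low height just beyond its 5′ end. With PD0332991 the summit had 3.67 FPM (7 fragments, 95% interval 1.47 to 7.55). After RB siRNA it had 6.19 FPM (15 fragments, 3.46 to 10.2), and in the siRNA control 3.16 FPM (11 fragments, 1.58 to 5.66). The intervals of the 3 libraries overlap. The summits lay 218 bp before the start with PD0332991, 354 bp after RB siRNA and 895 bp in the siRNA control, a spread of 677 bp. The summit after RB siRNA and that in the siRNA control did not match within 250 bp, so no ratio was formed for that pair. The summit with PD0332991 falls on base 33 of the FOXA1 window printed above, and the others lie outside it. TTC6, another gene of chromosome 14, has an end on this side of FOXA1. Its end was the nearest end of a protein-coding gene in all 3 cases, 162, 26 and 515 bp away, so the summits cannot be given to 1 of the 2 genes.

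In the PD0332991 control the interval over FOXA1 was 1178 kb wide and had its summit 928 kb away, nearest to PAX9, a transcription factor gene, with 6.51 FPM. MACS2 lists the highest treatment position of an interval as its summit. FOXA1 therefore had at most 6.51 FPM in that library, a limit above the level in the other 3.

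HOXB13 (chr17:48724763-48728750) lay under intervals that peaked at other genes in all 4 libraries. With PD0332991 the gene was crossed by the edges of 2 intervals. The lower one peaked 990 bp from HOXB9, a homeobox gene of the same cluster, with 3.67 FPM, and the upper one 97 bp from an end of SPOP, a ubiquitin ligase adaptor gene, with 19.4 FPM. In the PD0332991 control the summit lay 59 bp from TTLL6 (8.13 FPM), and after RB siRNA 78 bp from ATP5MC1, a subunit gene of ATP synthase (16.5 FPM). In the siRNA control the summit was 2261 bp from HOXB13, 16 bp from an end of its neighbour PRAC1, with 4.60 FPM (16 fragments, 2.63 to 7.47). The PRAC1 position thus had at most 3.67 FPM with PD0332991, 8.13 FPM in its control and 16.5 FPM after RB siRNA, so no loss or gain could be read there.

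ELL2 (chr5:95885098-95961851), the elongation factor gene, had the highest level among those of the 8 genes with a listed gene-end summit. Its summit had 14.1 FPM with PD0332991 (27 fragments, 9.32 to 20.6) and 13.0 FPM in the PD0332991 control (32 fragments, 8.90 to 18.4). The 2 summits were 1 bp apart, 6 and 5 bp inside the higher end of the gene. The log2 ratio was 0.12 (-0.68 to 0.90), and the median ratio of the 883 summits shared by these libraries at 5 FPM or more was 0.20. The ELL2 interval includes both 0 and that median, and 16.5% of the 883 shared summits lay beyond counting error.

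After RB siRNA, ELL2 was inside an interval of 5019 kb whose summit, 177 bp from the chromatin remodeller gene CHD1, had 19.0 FPM. ELL2 thus had at most 19.0 FPM there. In the siRNA control the higher end of ELL2 fell in a gap between listed intervals. The interval over the rest of the gene peaked 5956 bp beyond the lower end with 1.15 FPM (4 fragments). The level at the end itself is unknown in the siRNA control, so ELL2 could not be compared between RB siRNA and its control. Gaps held a gene end, without a gene-end summit, for 2.41% of protein-coding genes with PD0332991, 3.92% in its control, 1.74% after RB siRNA and 2.83% in the siRNA control.

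PLPP1 (chr5:55424854-55534964), the phosphatase gene, had 9.43 FPM with PD0332991 (18 fragments, 5.59 to 14.9) and 6.91 FPM in the PD0332991 control (17 fragments, 4.03 to 11.1). After RB siRNA it had 7.43 FPM (18 fragments, 4.40 to 11.7), and in the siRNA control 5.46 FPM (19 fragments, 3.29 to 8.53). From high to low the order was PD0332991, RB siRNA, the PD0332991 control and the siRNA control, and no neighbours in that order differed beyond their counting intervals. All 4 summits lay within 103 bp of the higher end of the gene and within 191 bp of each other. No other gene end was nearer to them.

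The fragments at PLPP1 numbered 17 to 19 in every library, so the spread in FPM comes from the library totals that divide them. The log2 ratio was 0.45 for PD0332991 over its control (-0.59 to 1.49). For RB siRNA over its control it was 0.44 (-0.57 to 1.45), where the median of 749 shared summits was 0.45 and 13.4% lay beyond counting error. Both ratios were within counting error of 0 and of the median of their comparison. Between the controls, with the PD0332991 control over the siRNA control, it was 0.34 (-0.69 to 1.36), where the median of 1187 shared summits was 0.59 and 20.1% lay beyond counting error. When each library was scaled to the summits shared by all 4, PLPP1 had 7.11, 6.12, 7.59 and 7.65 in the library order of the plot of levels. The siRNA control was then the highest and the PD0332991 control the lowest, so the order of the 4 levels depends on the scaling. The scaling moved whole libraries by -0.41, -0.18, 0.03 and 0.49 on the log2 scale.

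**Figure D2:**
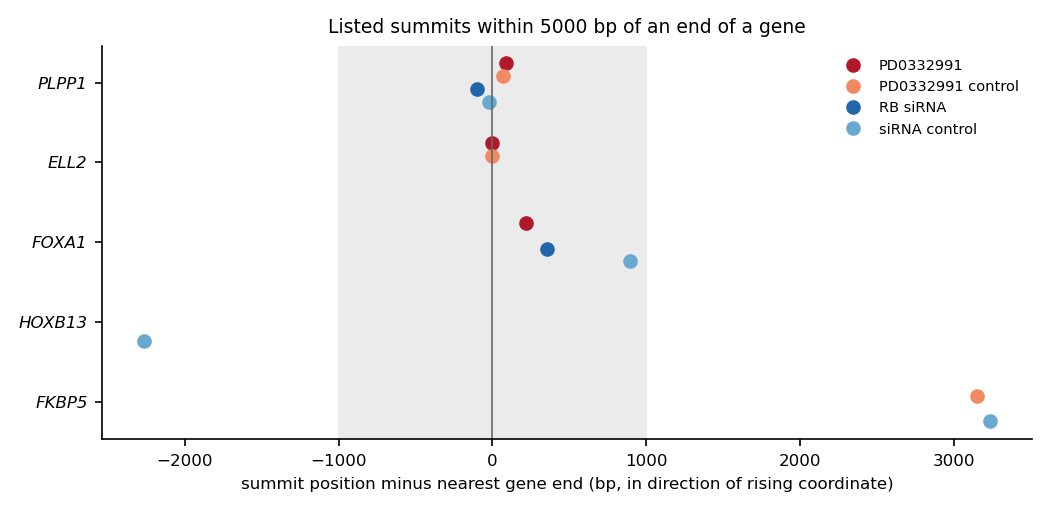
Position of each listed summit within 5000 bp of an end of the 5 genes that had one, relative to the nearest gene end (bp), with the 4 libraries in colour. The grey band marks 1000 bp on each side. The PLPP1 and ELL2 summits sit on the gene end, the FOXA1 summits between 218 and 895 bp from it, and those beside HOXB13 and FKBP5 lie outside the band.

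Within their libraries the gene-end summits of the 3 genes ranged from percentile 20.8 to percentile 79.5 by FPM. ELL2 stood at percentile 69.7 of 1289 gene-end summits with PD0332991 and at percentile 79.5 of 2833 in the PD0332991 control. PLPP1 stood at percentiles 55.2, 61.3, 49.1 and 64.6 in the same library order. FOXA1 was lower, at percentile 20.8 with PD0332991, 40.8 of 1108 after RB siRNA and 43.3 of 2941 in the siRNA control. The median gene-end summit had 8.38, 4.88, 7.43 and 3.74 FPM in the 4 libraries.

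Among 488 genes with a gene-end summit in all 4 libraries, PLPP1 included, the 3 with levels most like those of PLPP1 were CCNT2, CYP51A1 and EIF1AX. Their distances over the 4 log2 levels were 0.24, 0.33 and 0.35. CCNT2 had 8.90 FPM with PD0332991, 7.32 in its control, 8.25 after RB siRNA and 6.04 in the siRNA control.

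The cochaperone gene FKBP5 (chr6:35573590-35728583) had no gene-end summit in any library. RefSeq also gives it a start inside the gene, at chr6:35688915, which the gene-end rule does not read. No listed summit lay inside the gene in any library. Its 5′ end here means the outer one, at chr6:35728583. With PD0332991 the interval over its 5′ end was 2009 kb wide and peaked 182 bp from an end of the kinase gene PIM1 with 12.0 FPM. After RB siRNA it was 1234 kb wide and peaked with 12.4 FPM inside CDKN1A, which encodes the CDK inhibitor p21. The rest of FKBP5 lay under a second interval in both treated lists, with summits of 9.43 FPM at ZNF76 with PD0332991 and 22.7 FPM nearest to PACSIN1 after RB siRNA.

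In both controls the interval over FKBP5 peaked just beyond its 5′ end. The summit lay 3148 bp before the gene in the PD0332991 control, with 9.35 FPM (23 fragments, 5.93 to 14.0). In the siRNA control it lay 3230 bp before it, with 11.8 FPM (41 fragments, 8.46 to 16.0). The 2 positions were 82 bp apart, and the nearest gene end was that of ARMC12, 207 and 289 bp away. This position had at most 12.0 FPM with PD0332991 and at most 12.4 FPM after RB siRNA, limits above the level in each control, so no loss or gain could be read there. For the PD0332991 control over the siRNA control the log2 ratio was -0.33 (-1.14 to 0.44). Its interval includes 0 and lies below the median of 0.59 for shared summits, as did 8.42% of all shared summits of the controls. Without centring on that median the summit was within counting error.

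TMPRSS2 (chr21:41464305-41508158) was tightly limited over its whole length after RB siRNA and in the siRNA control. In the PD0332991 control it was so over most of its length. After RB siRNA the whole gene lay in an interval whose summit, 277 kb away, had 4.54 FPM (11 fragments, 2.27 to 8.12). In the siRNA control the interval over it was 781 kb wide and peaked 32 bp from that position, with 2.87 FPM (10 fragments, 1.38 to 5.29). No position in TMPRSS2 thus exceeded 4.54 FPM after RB siRNA or 2.87 FPM in the siRNA control. With PD0332991 the interval peaked 205 bp from the homeobox gene PKNOX1 with 64.9 FPM, which says little about TMPRSS2. In the PD0332991 control the interval over most of the gene reached 1.22 FPM (3 fragments). The higher end of TMPRSS2 lay in a gap there, so the level at that end is unknown in that library. A summit up to these limits would not be listed.

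At the kallikrein genes KLK3 (chr19:50854915-50860764) and KLK2 (chr19:50873439-50880567) the summits lay in the surrounding cluster. With PD0332991 and after RB siRNA the intervals over both genes peaked at 1 identical position, 50.0 kb before KLK3 and 47 bp from an end of the transcribed pseudogene TMEM277P. This summit had 12.0 FPM with PD0332991 (23 fragments, 7.64 to 18.1) and 11.6 FPM after RB siRNA (28 fragments, 7.68 to 16.7). The siRNA control interval covers the same position and peaked elsewhere, so the TMEM277P position had at most 8.33 FPM there. That limit lies inside the counting interval of the RB siRNA summit. In the PD0332991 control the interval over the TMEM277P position peaked near CLEC11A with 50.4 FPM. This limit is above the level with PD0332991, so no loss or gain could be read for that pair.

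In both controls a summit stood between KLK2 and KLK4, inside the transcribed pseudogene KLKP1. It had 7.32 FPM in the PD0332991 control (18 fragments, 4.34 to 11.6) and 8.33 FPM in the siRNA control (29 fragments, 5.58 to 12.0). It lay 14.1 and 14.2 kb from KLK2, and the positions differed by 82 bp. The log2 ratio of the PD0332991 control over the siRNA control was -0.19 (-1.12 to 0.71), within counting error of 0 and of the median. The KLKP1 position had at most 12.0 FPM with PD0332991 and at most 11.6 FPM after RB siRNA, both above the control levels.

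In the PD0332991 control KLK3 and the start of KLK2 lay under an interval that peaked near CLEC11A, 130 kb before KLK3, with 50.4 FPM (124 fragments, 41.9 to 60.1). The same summit was listed with 36.3 FPM after RB siRNA and 28.7 FPM in the siRNA control, in intervals that did not reach KLK3. The 50.4 FPM is therefore a level at CLEC11A and not at KLK3. At KLK3 itself the limits were 12.0 FPM with PD0332991, 50.4 FPM in its control, 11.6 FPM after RB siRNA and 8.33 FPM in the siRNA control.

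**Figure D3:**
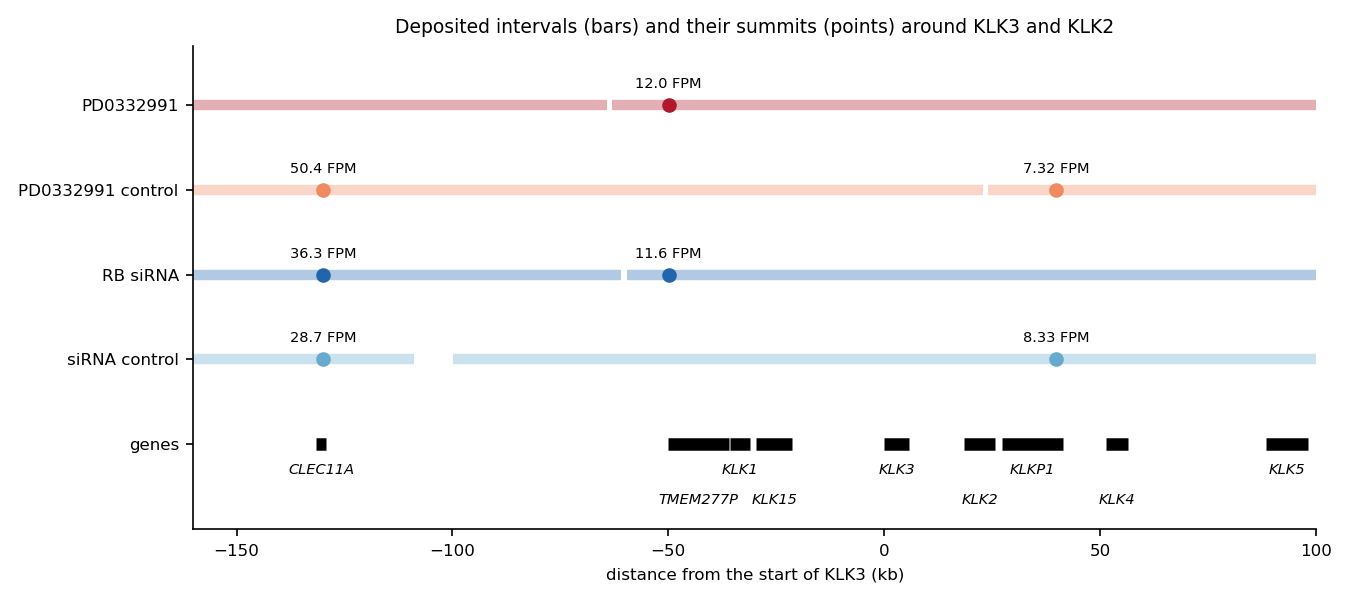
Deposited intervals (bars) and their summits (points, with FPM) in the 4 libraries over the kallikrein cluster, by distance from the start of KLK3 (kb), with genes as black boxes. No summit lies on KLK3 or KLK2. The PD0332991 and RB siRNA libraries share a summit at TMEM277P (12.0 and 11.6 FPM), and their controls share one at KLKP1 (7.32 and 8.33 FPM).

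Of the 8 genes, 2 could be compared between PD0332991 and its control by a shared summit at their ends, 1 between RB siRNA and its control, and 1 between the controls. None of these 4 gene-end ratios lay beyond counting error. Among all shared summits 16.5%, 13.4% and 20.1% did.

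**Figure D4:**
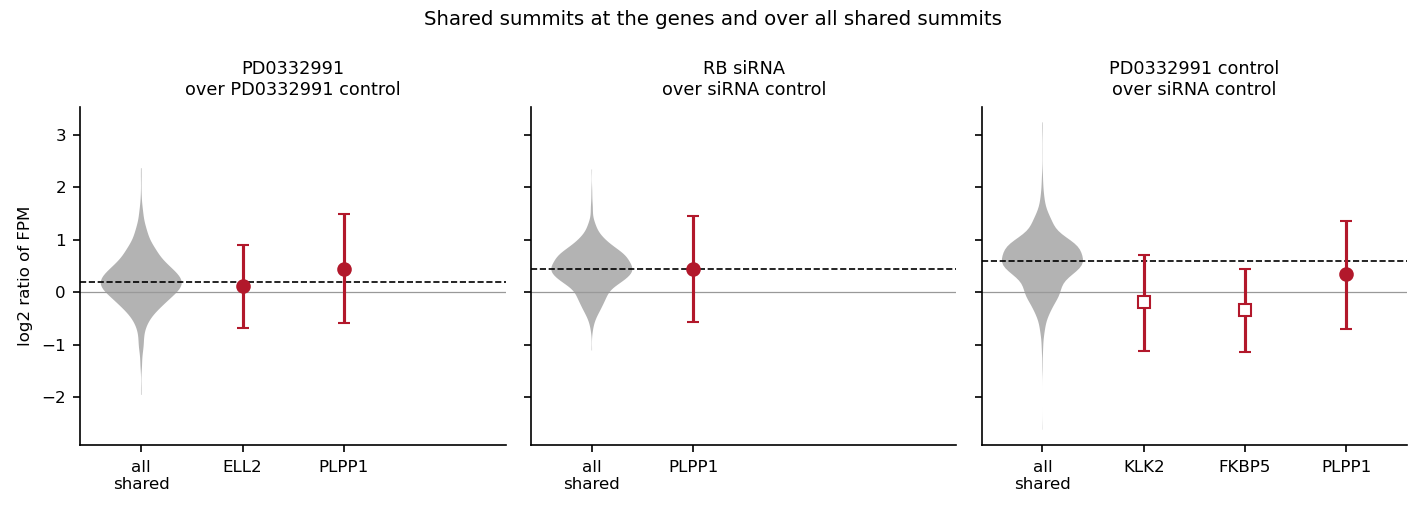
Log2 ratio of FPM at summits shared by a pair of libraries. Grey shapes show all shared summits at 5 FPM or more (883, 749 and 1187), dashed lines their median, filled circles gene-end summits and open squares the summits beside KLK2 and FKBP5, with 95% counting intervals. Every interval but that of FKBP5 between the controls includes the dashed line.

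Other genes of the programme were read from lists given by count. Of 33 further androgen-induced genes, 5 had a gene-end summit with PD0332991, 8 in its control, 5 after RB siRNA and 9 in the siRNA control, or 15.2%, 24.2%, 15.2% and 27.3% against the 7.73%, 16.8%, 6.63% and 17.3% of all genes. CENPN, a centromere protein gene, was listed in all 4, with 16.2 FPM with PD0332991, 11.8 in its control, 10.7 after RB siRNA and 5.75 in the siRNA control. UAP1, of amino sugar synthesis, had 20.9 FPM with PD0332991, 12.8 after RB siRNA and 12.4 in the siRNA control. The zinc finger gene ZBTB10 had 6.51 FPM in the PD0332991 control, 9.90 after RB siRNA and 6.90 in the siRNA control. ACSL3, a fatty acid ligase gene, had 3.14 FPM with PD0332991, 6.19 after RB siRNA and 2.87 in the siRNA control. TPD52 was listed with PD0332991 (9.95 FPM) and in the siRNA control (4.89 FPM). NDRG1 and C1orf116 were listed in both controls alone, with 5.69 and 9.76 FPM in the PD0332991 control and 3.16 and 10.1 FPM in the siRNA control. The PD0332991 control held 9720 intervals and the siRNA control 10412, against 3206 with PD0332991 and 2553 after RB siRNA. A listing in the controls alone therefore does not show a loss with treatment.

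Of 20 genes for hormone receptor chaperones and cofactors, 3, 4, 3 and 7 carried one, in the same library order, or 15%, 20%, 15% and 35% against the 7.73%, 16.8%, 6.63% and 17.3% of all genes. SPOP, whose product marks proteins for degradation, was listed in all 4, with 19.4 FPM with PD0332991, 16.7 in its control, 16.1 after RB siRNA and 11.2 in the siRNA control. The chaperone gene HSP90AB1 had 9.76 FPM in the PD0332991 control, 7.43 after RB siRNA and 4.60 in the siRNA control, and HSP90AA1 had 11.8 FPM in the PD0332991 control and 9.20 in the siRNA control. GRHL2, an epithelial factor gene, had 4.71 FPM with PD0332991 and 3.45 in the siRNA control, and the acetyltransferase gene CREBBP had 4.71 and 3.74 in the same libraries. The corepressor gene TLE3 had 5.78 FPM after RB siRNA and 6.61 in the siRNA control.

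Markers of cell identity were counted in the same way. Of 10 luminal prostate markers, AMACR in the siRNA control (3.16 FPM) was the 1 gene with a gene-end summit. Of 11 basal and neuroendocrine markers, 1, 3, 1 and 2 had one in the same library order, or 9.09%, 27.3%, 9.09% and 18.2% against the 7.73%, 16.8%, 6.63% and 17.3% of all genes. SOX2 had 2.09 FPM with PD0332991, 2.03 in its control and 1.15 in the siRNA control, on 4 or 5 fragments each. ONECUT2 had 4.07 FPM in the PD0332991 control, 4.54 after RB siRNA and 4.02 in the siRNA control. Of 8 markers of blood, vessel, stromal and liver cells, 0 were listed in any library. Gene-end summits are not expression, so these counts do not check the labelled cell type.

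**Figure D5:**
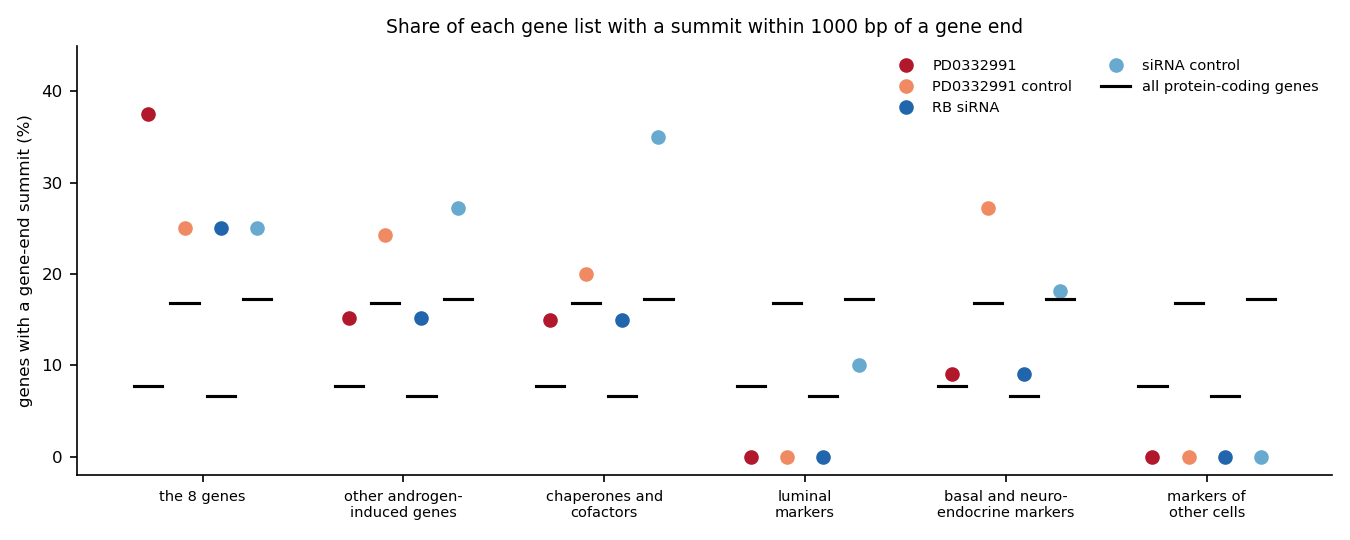
Share of each gene list with a summit within 1000 bp of a gene end (percent) in the 4 libraries, with black bars for the share over all 20037 protein-coding genes. The 8 genes stand at 37.5% with PD0332991 and 25.0% in the other libraries, the luminal markers at 0 except for 10% in the siRNA control, and the markers of other cells at 0.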

How the data were processed

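The 8 genes and all gene lists were chosen with earlier results of these data known. Per the submitters' processing notes, the tools were bcl2fastq 2.17, Trimmomatic 0.33, Bowtie2 (its version is named as 2) and MACS2 2.1.0 for the intervals, on build hg38. Settings and order are not given there.

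Each library has 1 deposited list. The deposited score equals 10 times the −log10 p, cut to its whole part. The deposited fold is a ratio at the summit, scaled-down treatment plus 1 over background plus 1. That summit also has the −log10 of its p and of its q, as the authors deposited them. The summit is the interval start plus the deposited offset. The lists tile the genome: median widths were 557, 189, 718 and 180 kb (PD0332991, its control, RB siRNA, siRNA control), so overlap carries little information.

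Fold and p were solved for treatment fragments, using the pseudocount (1) and Poisson tail of MACS2. At the genome-wide background 100% of 3106, 8805, 2526 and 9717 summits were whole within 0.05 fragments, against 10% by chance. Over all summits 1, 9, 0 and 1 were not, and were left out. Library totals assume a 10000 bp window and a genome of 2.7 Gb. The recovery and the interval on ratios were tested on simulated data. Levels carry exact Poisson intervals, and ratios of summits matched within 250 bp carry exact conditional intervals (95%). A ratio was beyond counting error when its interval excluded the median of pairs at 5 FPM or more. PCR duplicates cannot be seen in the lists, and intervals cover counting error alone.

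Gene positions and promoters came from RefSeq (GRCh38.p14). The named genes are the 8 members and the list genes with a gene-end summit in at least 2 libraries. AMACR and the genes nearest to a listed summit were also named. PCA3 and PART1, which are not protein-coding, were left out of the counts, and 1 gene of the lists is not reported here. Python 3.11.15, numpy 2.4.6, pandas 2.3.3, scipy 1.17.1 and matplotlib 3.10.9 were used.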

Additional observations from a re-analysis of the deposited data

How the results depend on the processing

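No paired analysis was possible because each group held 1 library. The counts of genes with a gene-end summit depended on the threshold. At a −log10 q of at least 2, 0 of the 8 genes and 0 of the 74 list genes had one in any library, where 0.0499%, 0.434%, 0.0250% and 0.180% of all genes did (PD0332991, its control, RB siRNA, siRNA control). At a fold of at least 1.5 the counts were 0 of 8 in every library, and 0, 1, 0 and 0 of 74, where 0.434%, 3.21%, 0.245% and 1.87% of all genes passed, so these counts say little about the 8 genes. The fold of 1 fragment differs between lists. Within 500 bp, the siRNA control had 1 of the 8 genes, without FOXA1, where 15.0% of all genes had a summit. Within 5000 bp it had 4, with FKBP5 and HOXB13 added, where 23.3% of all genes did. The PD0332991 control then had 3 of 8, where 22.9% of all genes did. Restricted to 5′ ends in the promoter table, which holds 4 of the 8 genes, the counts were 1, 0, 1 and 1. ELL2 and PLPP1 are not among those 4, so their summits could not be counted. The shares over all genes were then 6.73%, 14.8%, 5.84% and 15.1%, with genes absent from the promoter table taken as having no summit. With a minimum of 5 FPM, chosen after seeing the data, 2 of 8 remained with PD0332991 and 1 of 8 in the siRNA control. List genes then numbered 4 of 74 with PD0332991, 7 in its control and 7 in the siRNA control. Of all genes 5.43%, 8.79% and 6.98% passed in these libraries. Without centring, the FKBP5 ratio of the PD0332991 control over the siRNA control was -0.33 and within counting error, against -0.92 relative to the median. The other 29 alternatives of the ratios gave the same call, and the 9 of the levels stayed within the counting intervals. The 9 of the percentiles did too, and intervals over the 8 genes were the same on all contigs. The percentiles were ranked by the fold, from which FPM is recovered, and other contigs hold none of the 8 genes. The checks of percentiles and contigs thus had little or no room to differ. A list with 1 summit per interval limits what depth could show: a lower summit beside a higher one is not listed.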
